A study of Caenorhabditis elegans with 3 samples.

Results

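ABC transporters are membrane proteins that use ATP to move substrates across a membrane, and the genes of this superfamily were read on 3 microarrays of the nematode Caenorhabditis elegans. The members were the probe sets, groups of short probes for the same transcript, annotated to a single gene of the pgp, mrp, haf, pmp, abt, abcf or wht series or to ced-7, cft-1, abce-1 or hmt-1. This gave 69 probe sets of 55 genes, of 22625 probe sets and 17118 singly annotated genes in all. The arrays held total RNA of young adult hermaphrodites (3 days) of strain N2, which is wild type, from an age-synchronized population grown on Escherichia coli OP50. The worms were untreated at 0 h or had been kept at 20 °C for 4 h or 24 h with 1 mg/L of multiwall carbon nanotubes, hollow fibres of rolled carbon sheets, in a potassium and sodium chloride solution. Each time was measured on 1 array, so no value has a replicate error and no test between times was possible. No array of unexposed worms at 4 h or 24 h was analysed here, so exposure, time in the salt solution and age cannot be told apart.

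Full-length ABC transporters join a pair of membrane domains and a pair of ATP-binding domains in a single chain, and shorter members carry 1 of each and work as dimers. In worms the P-glycoproteins (pgp) and multidrug resistance proteins (mrp) are known for exporting drugs, metal complexes and natural toxins, mostly in the intestine and the excretory system. Other branches act on lipids, peptides and heme inside the cell, and the ABCE and ABCF proteins lack membrane domains and work in translation.

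The values are intensities normalized by the authors and kept on a linear scale. Each ratio was taken on the log2 scale after 32 had been added to both intensities, so the change of a dim gene is understated. The words "higher" and "lower", where no value stands beside them, mean at least 2-fold. A gene passed the filter when the mean log2 intensity of a probe set reached the median of all probe sets, an intensity of 103.9, and each gene was read on its brightest passing probe set. The background floor, 67.8, was set at the brightest control probe set for transcripts that worm RNA does not hold. Of the 55 ABC genes, 29 passed, 26 of them at or above 103.9 on every array, and mrp-2, pgp-3 and pgp-11 only on some arrays. Of the 26 genes that did not pass, 12 stayed below the floor on every array. The arrays had median intensities of 101.8 at 0 h, 100.2 at 4 h and 102.8 at 24 h. The technical SD of a ratio was computed over 1830 genes that had at least 2 passing probe sets and was 0.24 for 4 h against 0 h, 0.47 for 24 h against 0 h and 0.29 for 24 h against 4 h on the log2 scale. It is a root mean square of the difference in ratio between the 2 brightest passing probe sets of a gene. The mean square was divided by 2 before the root was taken, and the mean difference was not removed. It therefore includes the mean offset between brighter and dimmer probe sets (-0.17 at 4 h and -0.35 at 24 h) and is larger than the scatter alone. It covers differences between probe sets of 1 gene and not those between cultures or hybridisations.

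Under the settings above, the ABC transporter genes past 2-fold against 0 h were all lower, but too few to read a direction of the group from. At 4 h the pmp-5 gene was lower, and at 24 h pmp-5, pgp-14 and haf-6 were lower. That is 1 of 29 genes (3.45%) at 4 h, where 4.97% of all 8634 genes were past 2-fold and 3.25% were lower. At 24 h it is 3 of 29 (10.3%), where 13.3% of all genes were past 2-fold and 7.96% were lower. In these 2 comparisons, 0 of 29 ABC genes were 2-fold higher, against 1.71% of all genes at 4 h and 5.32% at 24 h. Other settings did give higher genes, such as pgp-11 at 24 h with 1 added in place of 32. With passing probe sets averaged, abcf-2 was higher at 24 h. Of all 8634 genes, 577 and 457 were higher at 24 h in these readings. Between the exposure times, pgp-11 was higher at 24 h than at 4 h, 1 of 29 genes, where 2.28% of all genes were higher, 3.22% lower and 5.5% past 2-fold either way. This gene passed the filter through its 24 h value alone, and the count was 0 once the filter level was raised to the 75th percentile. At 1.5-fold, 4 of 29 ABC genes were past the threshold at 4 h (14.5% of all genes), 12 at 24 h (31.7%) and 7 for 24 h against 4 h (16.1%), and at 3-fold 0 (1.52%), 2 (5.25%) and 0 (2.02%). Without the filter, 3 of 55 ABC genes were past 2-fold at 4 h (2.83% of all 17118 genes), 5 at 24 h (7.66%) and 2 for 24 h against 4 h (3.01%). These include pgp-1, pgp-5 and pgp-13, each below the floor on 2 of the 3 arrays. The pgp-1 gene was lower at 4 h and 24 h and pgp-13 at 24 h, while pgp-5 was higher at 4 h. The median log2 ratio of the 29 genes was -0.04 at 4 h and -0.01 at 24 h, and that of all genes was 0 in both comparisons. The median size of a ratio, whatever its sign, was 0.21 for the ABC genes and 0.18 for all genes at 4 h, and 0.38 and 0.35 at 24 h. Ratios within the technical SD were found for 17 of the 29 genes at 4 h and 16 at 24 h, against 59.2% and 60.3% of all genes. Both ratios lay within it for 12 of the 29 genes and 48.6% of all genes. Counts past 2-fold in the smaller groups and lists below stand beside 4.97% of all genes at 4 h and 13.3% at 24 h.

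**Figure D1:**
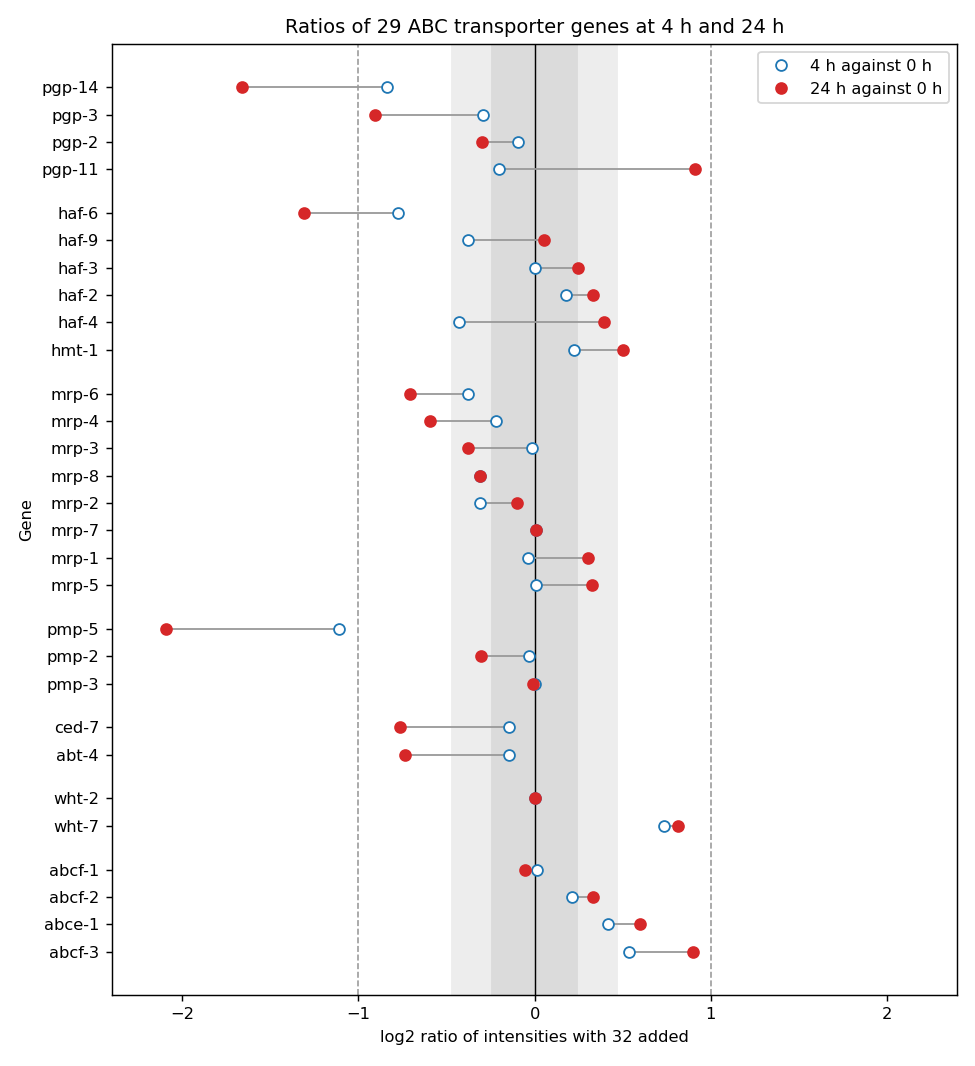
Log2 ratios of the 29 ABC transporter genes that passed the filter, grouped by gene series, with 4 h against 0 h as open circles and 24 h against 0 h as filled circles. Dashed lines mark 2-fold, and the grey bands span the technical SD of 0.24 at 4 h (dark) and 0.47 at 24 h (light). The 24 h values of pmp-5, pgp-14 and haf-6 lie beyond the lower dashed line, and no circle lies beyond the upper one.

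A direction given here is relative to the rest of the same array. When the arrays were scaled on 9 bacterial hybridisation control probe sets instead, the median log2 ratio of all genes moved to 0.42 (4 h), 0.59 (24 h) and 0.18 (24 h against 4 h), and the ABC medians to 0.35, 0.59 and 0.20. Under that scaling 1 of 29 ABC genes was higher and 0 lower at 4 h, where 5.88% of all genes were higher and 1.4% lower. At 24 h, 6 of 29 were higher and 2 lower, where 21% of all genes were higher, 3.67% lower and 24.6% either, so the share of higher ABC genes was close to that of all genes. The higher ones were abce-1, abcf-3, haf-4, hmt-1, pgp-11 and wht-7, and the lower ones pgp-14 and pmp-5. For 24 h against 4 h, 2 of 29 (haf-4 and pgp-11) were past 2-fold, where 6.17% of all genes were. The split of all genes past 2-fold was then 80.8% higher at 4 h against 34.5% as deposited, and 85.1% against 40.1% at 24 h. For 4 of 4 worm control transcripts the 5' to 3' signal ratio exceeded that of the 0 h array, with a median log2 difference of 0.32 at 4 h and 0.56 at 24 h. The 27 sperm markers summed to intensities of 202106, 147528 and 31671 over the 3 times in order, and all 27 were lower at 24 h. The 4 adult hermaphrodite markers (vit-2, vit-5, vit-6, col-19) summed to 57175, 59242 and 54005, with 0 of 4 past 2-fold. The part of these shifts in the ABC values was not tested. In whole worms, fewer cells of a type and less RNA per cell cannot be told apart.

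**Figure D2:**
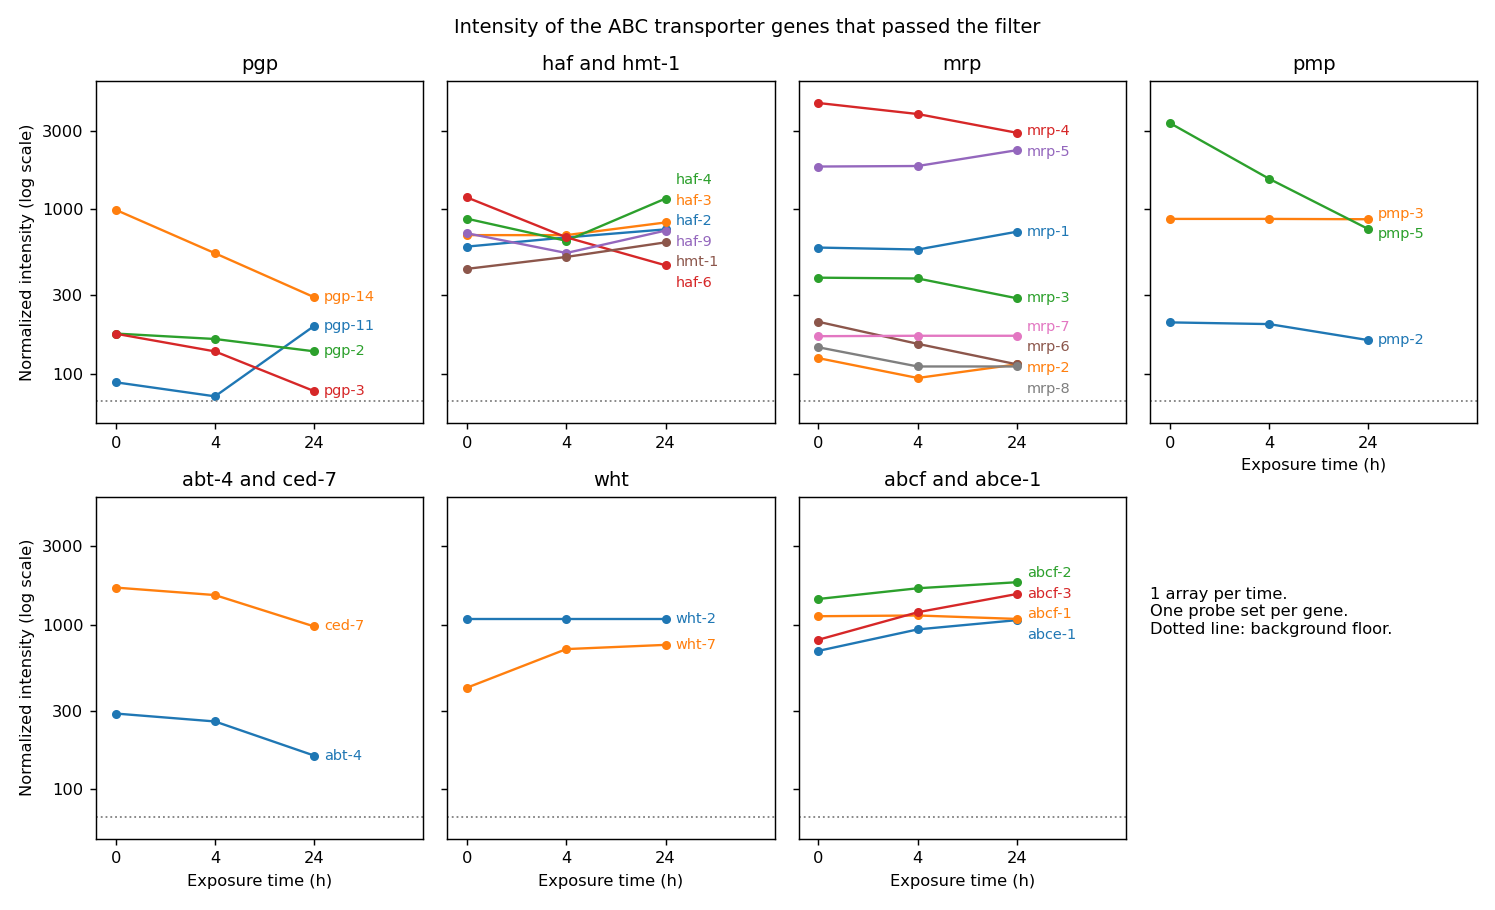
Normalized intensity (log scale) of the 29 ABC transporter genes that passed the filter at 0 h, 4 h and 24 h, in a panel for each gene series, with 1 probe set per gene and 1 array per time. The dotted line is the background floor of 67.8. The pgp-14, haf-6 and pmp-5 lines descend at both steps, and the pgp-11 line turns upward after 4 h. The wht-2 and pmp-3 lines are flat and hold values listed as exactly identical on several arrays.

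The P-glycoproteins export toxic compounds, and 4 of the 13 pgp genes passed the filter. The pgp-14 gene, whose product builds a lipid barrier in the pharyngeal cuticle, was at 989 at 0 h, 539 at 4 h and 291 at 24 h. Its log2 ratios against 0 h were -0.84 at 4 h and -1.66 at 24 h, a 3.16-fold lower value at 24 h. A different pgp-14 probe set, open to cross-hybridisation, was at 531, 360.1 and 318, with ratios of -0.52 and -0.69. Both probe sets were thus highest at 0 h and lowest at 24 h, and on the second one the 24 h ratio did not reach 2-fold. Of the pharynx markers (myo-1, myo-2, tnc-2), 3 of 3 had 24 h ratios above 0, where 3871 of all 8634 genes had. Their median was 0.48 at 24 h, and at 4 h 1 was above 0, 1 below and 1 at 0. A link to pgp-14 was not tested.

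The pgp-11 gene, linked to worm susceptibility to the anthelmintic ivermectin, went the other way at 24 h. It was at 88.6 at 0 h, 72.8 at 4 h and 195 at 24 h, a log2 ratio of 1.12 for 24 h against 4 h and of 0.91 for 24 h against 0 h. Its 24 h value alone was above the filter level of 103.9, so it passed through the array on which it was high. The pgp-3 gene, needed for resistance to colchicine and chloroquine, was at 175, 136 and 78.3, with ratios of -0.30 at 4 h (0.08 under scaling on hybridisation controls) and -0.91 at 24 h. The pgp-2 gene, needed for the acidic granules of the gut, was at 175, 162 and 137, and its 24 h ratio of -0.30 turned to 0.25 under scaling on hybridisation controls.

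Some P-glycoprotein genes that did not pass the filter also differed between the arrays. The pgp-1 gene, which protects worms from cadmium and arsenite, was at 369.8 at 0 h, 30.1 at 4 h and 50.1 at 24 h. Both exposure values were below the floor, which puts pgp-1 at least 4.02-fold lower at 4 h and at 24 h than at 0 h. Its single probe set is open to cross-hybridisation. The pgp-13 gene was at 139, 60.9 and 43.2, which is at least 1.71-fold lower at each exposure time, and only the 0 h value was above the floor. The pgp-9 gene was at 128 at 0 h and near the floor at 73.2 and 81.1 afterwards.

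The pgp-5 gene, known for a part in resistance to pathogenic bacteria, was above the floor at 4 h alone, at 43.6, 128 and 38.3 (at least 1.60-fold higher at 4 h than at 0 h). In the WBcel235 gene order pgp-5, pgp-8, pgp-7 and pgp-6 lie next to each other with no protein-coding gene between. A probe set shared by pgp-6 and pgp-7, which is no member because it names both, was at 113, 205 and 94.0, with ratios of 0.71 at 4 h and -0.20 at 24 h. It was thus also highest at 4 h. This shared probe set and that of pgp-5 are both open to cross-hybridisation, and whether they read the same transcripts was not tested. The pgp-8 gene was listed at 24.96 on every array, below the floor. A second run of neighbours is pgp-12, pgp-13 and pgp-14. Of these, pgp-13 and pgp-14 were highest at 0 h, and pgp-12, known from the excretory cell, was at exactly 102.8 on all 3 arrays. Of the other pgp genes that did not pass, pgp-15 and pgp-4 stood at 79.8 and 70.3 on every array, and pgp-10 stayed below the floor.

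**Figure D3:**
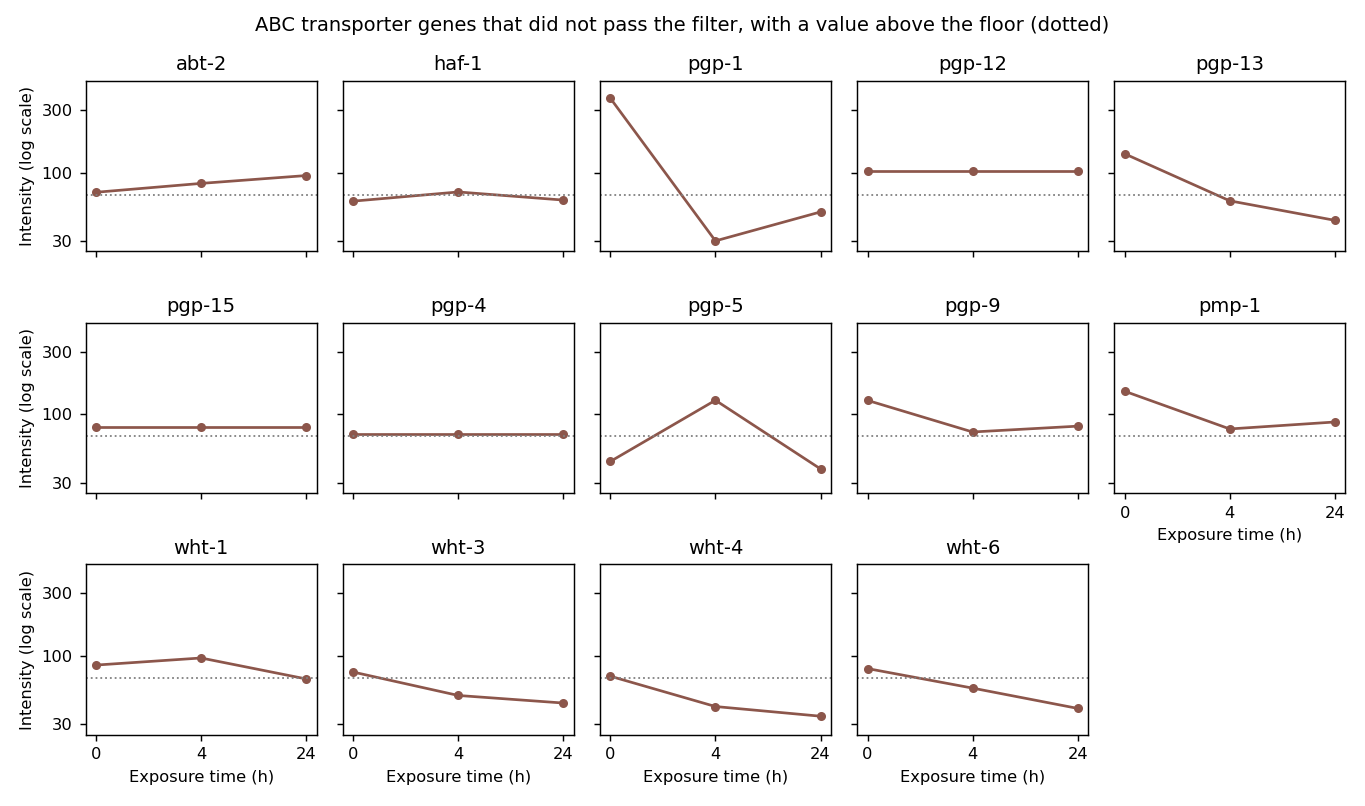
Normalized intensity (log scale) at 0 h, 4 h and 24 h of the 14 ABC transporter genes that did not pass the filter but were above the background floor (dotted line, 67.8) on at least 1 array, with the brightest probe set of each gene. The pgp-1 gene is at 369.8 at 0 h and below the floor afterwards, and pgp-5 is above the floor at 4 h alone.

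The haf genes and hmt-1 encode the shorter, dimer-forming members, and 6 of these 9 genes passed. The haf-6 gene, whose product is needed for efficient RNA interference in the germline and intestine, was at 1176 at 0 h, 673 at 4 h and 455 at 24 h. Its ratios against 0 h were -0.78 and -1.31, a 2.48-fold lower value at 24 h, and under scaling on hybridisation controls the 24 h ratio was -0.68 and no longer past 2-fold. Of the 13 other RNA interference genes on a list of known components, all passed the filter and 0 were past 2-fold at 4 h or 24 h, with medians of -0.03 and -0.01.

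The haf-4 and haf-9 products form a heterodimer on the lysosome-related granules of the intestine. The haf-4 gene was at 874 at 0 h, 641 at 4 h and 1159 at 24 h, with ratios of -0.43 and 0.40, and its other 2 probe sets had ratios of -0.42 and -0.20 at 4 h and of 0.55 and 0.75 at 24 h. The haf-9 gene was at 713, 541 and 740.1, with ratios of -0.38 and 0.05. Both genes were thus lowest at 4 h, although their 4 h ratios turned to 0.00 and 0.05 under scaling on hybridisation controls. Both were listed highest at 24 h, but the 24 h ratios of haf-4 and haf-9 were only 0.85 and 0.11 times the technical SD. Of 10 genes for gut granule formation, 0 were past 2-fold at either time, with medians of -0.03 and 0.05.

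The hmt-1 gene, whose product gives tolerance to cadmium through metal complexes with phytochelatins, was at 433, 512 and 628 on a probe set open to cross-hybridisation. Its ratios of 0.23 at 4 h and 0.50 at 24 h were 0.93 and 1.08 times the technical SD. Of 10 passing genes of metal binding and phytochelatin synthesis, 1 was higher and 1 lower at each exposure time. The haf-2 gene was at 592, 672 and 753, and haf-3 at 695, 695 and 829, with 24 h ratios of 0.33 and 0.25, both within the technical SD. The haf-1 gene, which exports peptides from mitochondria in the mitochondrial stress response, did not pass and lay near the floor at 60.5, 71.2 and 61.7. The haf-7 and haf-8 genes stayed below the floor.

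Of the 9 genes of the ABCC branch, the 8 mrp genes passed and none was past 2-fold in any of the 3 comparisons. Of all genes, 4.97% were past 2-fold at 4 h, 13.3% at 24 h and 5.5% for 24 h against 4 h. With 8 genes no difference from these shares can be read. The chloride channel relative cft-1, named for its likeness to human CFTR, stayed below the floor at 23.9 to 27.8. The mrp-1 gene, which acts with pgp-1 in metal resistance, was at 584 at 0 h, 568 at 4 h and 728 at 24 h, with ratios of -0.04 and 0.31. Its neighbour mrp-2 was at 124, 94.1 and 114. The mrp-5 gene, whose product exports heme from the intestine, was at 1814, 1827 and 2280.1, with ratios of 0.01 and 0.33. Its dimmer probe set, open to cross-hybridisation, was at 228, 277 and 334.5, with ratios of 0.25 and 0.49. Both mrp-5 probe sets were highest at 24 h, and only the dimmer one was above its 0 h value at 4 h by more than the technical SD.

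The mrp-4 gene, known from lipid-containing gut granules, was at 4412, 3781 and 2908, and its 24 h ratio of -0.60 turned to 0.06 under scaling on hybridisation controls. Its dimmer probe set was at 382, 475 and 307, so the 4 h ratios of the pair were -0.22 and 0.29, on opposite sides of 0. The mrp-6 gene was at 206, 152 and 114 with a 24 h ratio of -0.71, against 0.20 on its other probe set. Under scaling on hybridisation controls the first of these mrp-6 ratios was -0.16. The mrp-3 gene was at 383, 379 and 287. The mrp-7 gene, which limits methylmercury build-up, was at 168.8 at 0 h and at exactly 169.8 on both later arrays, and mrp-8 was at 145 and then at exactly 110.5 on both. These 5 genes differed from 0 h by less than 2-fold at each time.

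The pmp genes encode ABCD transporters, and human members of this branch carry very long chain fatty acids into peroxisomes or act in lysosomes. The pmp-5 gene was at 3334 at 0 h, 1529 at 4 h and 756 at 24 h on a probe set open to cross-hybridisation. Its log2 ratios were -1.11 at 4 h, -2.09 at 24 h and -0.99 for 24 h against 4 h, a value 2.16-fold lower at 4 h and 4.27-fold lower at 24 h than at 0 h. The first 2 ratios were 4.57 and 4.48 times the technical SD. Under scaling on hybridisation controls they were -0.67 and -1.45, so the 4 h value was no longer past 2-fold.

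None of the other pmp genes was past 2-fold at either time. The pmp-3 gene, a common reference gene in worm expression studies, was at exactly 871.4 on the 0 h and 4 h arrays and at 867 on the 24 h array. Ties between those 2 arrays were found for 27.8% of all probe sets. Whether this one is a measured lack of change cannot be told. The dimmer pmp-3 probe set was at 108, 117 and 116. The neighbouring genes pmp-1 and pmp-2 were at 149.9, 77.2 and 87.3, and at 205, 200.01 and 159.8, and pmp-1 did not pass the filter. Of 14 passing genes of peroxisome biogenesis and peroxisomal fatty acid breakdown, 0 were past 2-fold at either time, with medians of 0.02 at 4 h and -0.07 at 24 h.

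The ABCA branch, whose human members move lipids, was mostly dim, since 5 of its 7 genes did not pass and 4 of these stayed below the floor. The ced-7 gene, which acts in the engulfment of dying cells, was at 1681 at 0 h, 1514 at 4 h and 976 at 24 h, a 24 h ratio of -0.77. Under scaling on hybridisation controls that ratio was -0.12. A second ced-7 probe set was listed at exactly 577 on all 3 arrays, so the listed values of the pair differed at 24 h. Such ties were found for 14.1% of all probe sets, and whether this one is a measured lack of change cannot be told. Both ced-7 probe sets are open to cross-hybridisation. Of 9 passing engulfment genes, 0 were past 2-fold at either time, with medians of -0.09 and -0.46. The abt-4 gene was at 289, 258 and 160.1, a 24 h ratio of -0.74 (-0.16 under scaling on hybridisation controls). The abt-2 gene did not pass and was at 70.8, 82.7 and 94.96 on its brighter probe set.

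Of the 9 wht genes, relatives of the fly white gene for eye pigment transport, 2 passed. The wht-7 gene was at 415 at 0 h, 711 at 4 h and 754 at 24 h on a probe set open to cross-hybridisation, with ratios of 0.73 and 0.82, and its other probe set stayed below the floor. The wht-2 gene was at exactly 1082 on all 3 arrays. Identical values on all arrays were found for 10 of the 69 ABC probe sets, or 14.5%, against 14.1% of all probe sets. The 7 wht genes that did not pass lay between 23.9 and 96.4.

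The ABCE and ABCF proteins do not transport, and all 4 of their genes passed and had 4 h ratios above 0, as had 45.1% of all genes. The abce-1 gene, whose yeast counterpart splits ribosomes after translation ends, was at 694 at 0 h, 936 at 4 h and 1066 at 24 h, with ratios of 0.42 and 0.60. Its dimmer probe set was at 85.6, 151 and 215, with ratios of 0.64 and 1.07. Both abce-1 probe sets were thus lowest at 0 h and highest at 24 h. The abcf-3 gene, which acts with gcn-1 in programmed cell death, was at 810.5, 1191 and 1537, with ratios of 0.54 and 0.90 (2.21 and 1.92 times the technical SD).

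The abcf-2 gene was at 1434, 1665 and 1812, with ratios of 0.21 and 0.33. Its dimmer probe set, open to cross-hybridisation, was at 443, 1067 and 1863, with ratios of 1.21 and 2.00. The size of the difference for abcf-2 therefore depended on the probe set. All 4 ratios were above 0, but those of the brighter probe set were only 0.87 and 0.71 times the technical SD. The abcf-1 gene was at 1126, 1138 and 1084, and the sign of its 24 h ratio of -0.05 turned under quantile normalization (0.02) and scaling on hybridisation controls (0.59). Of 8 genes of translation initiation and ribosome recycling, 0 were past 2-fold at either time, with medians of 0.06 and -0.03.

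**Figure D4:**
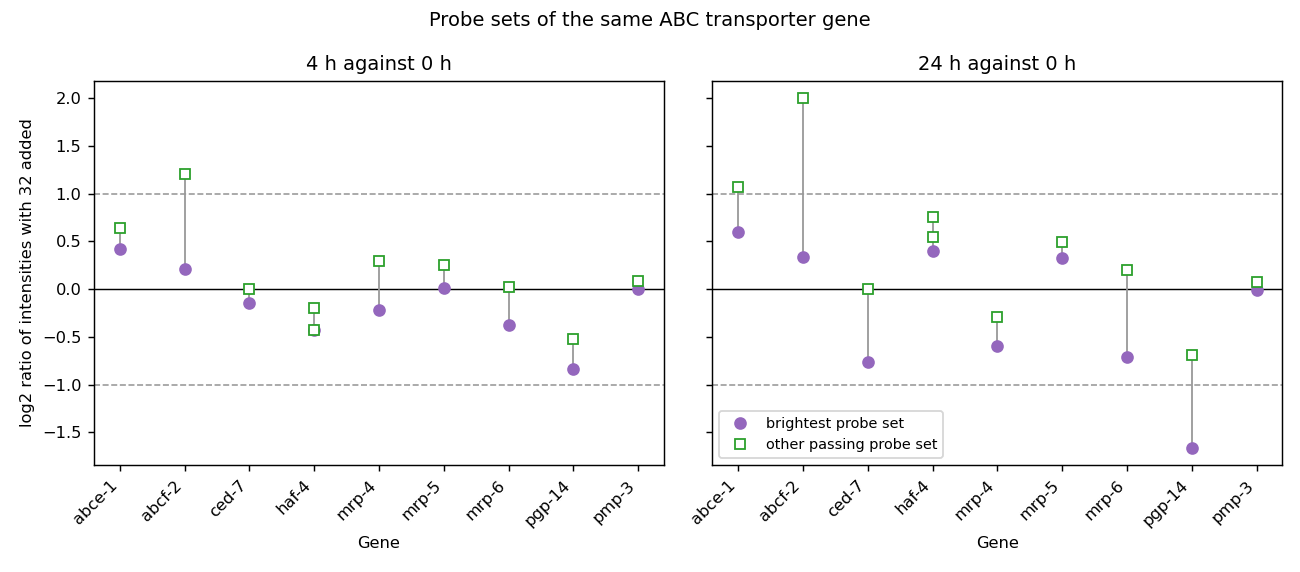
Log2 ratios of the 9 ABC transporter genes with 2 or more passing probe sets, for 4 h against 0 h (left) and 24 h against 0 h (right), with the brightest probe set as a filled circle and the others as open squares. Dashed lines mark 2-fold. At 24 h the squares of abcf-2 (2.00) and pgp-14 (-0.69) lie far from their circles (0.33 and -1.66).

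Over all genes, the brighter of a pair of probe sets had the lower ratio in 76.1% of 1830 genes at 4 h and 78.6% at 24 h, with mean differences of -0.17 (SE 0.007) and -0.35 (SE 0.013). When each gene was read on its dimmest passing probe set, abcf-2 was higher at 4 h, abce-1 and abcf-2 were higher at 24 h, and pgp-14 was no longer past 2-fold. In that reading 155 of all 8634 genes were higher at 4 h and 526 at 24 h. Of the 29 genes, 15 were read on probe sets open to cross-hybridisation, and their median ratios were -0.03 at 4 h and -0.05 at 24 h, beside -0.17 and -0.0033 for the 14 others. Without such probe sets 16 genes were left, pmp-5, hmt-1 and wht-7 were not among them, and 0 were past 2-fold at 4 h and 2 at 24 h. Of all 5690 genes left, 107 were higher and 190 lower at 4 h, and 325 higher and 426 lower at 24 h.

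Genes for enzymes that prepare foreign compounds for export were set beside the transporters, with 13.3% of all genes past 2-fold at 24 h, 4.97% at 4 h and 5.5% for 24 h against 4 h. At 24 h, 1 of 37 passing UDP-glycosyltransferase genes (64 on the array) was higher and 16 were lower, with a median ratio of -0.90. Among 23 passing glutathione S-transferase genes (45 on the array) there were 3 on the higher and 7 on the lower side, with a median of -0.27. Among 27 passing cytochrome P450 genes (73 on the array) there were 3 and 6, with a median of -0.15. At 4 h the counts past 2-fold were 16, 7 and 7 in these lists, against 1 of 29 ABC genes. For 24 h against 4 h they were 6 of 37, 1 of 23 and 5 of 27, against 1 of 29 ABC genes. With 1 array per time the differences between lists could not be tested. Of 6 passing regulators of foreign compound responses, 0 were past 2-fold at 4 h and 1 was lower at 24 h.

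**Figure D5:**
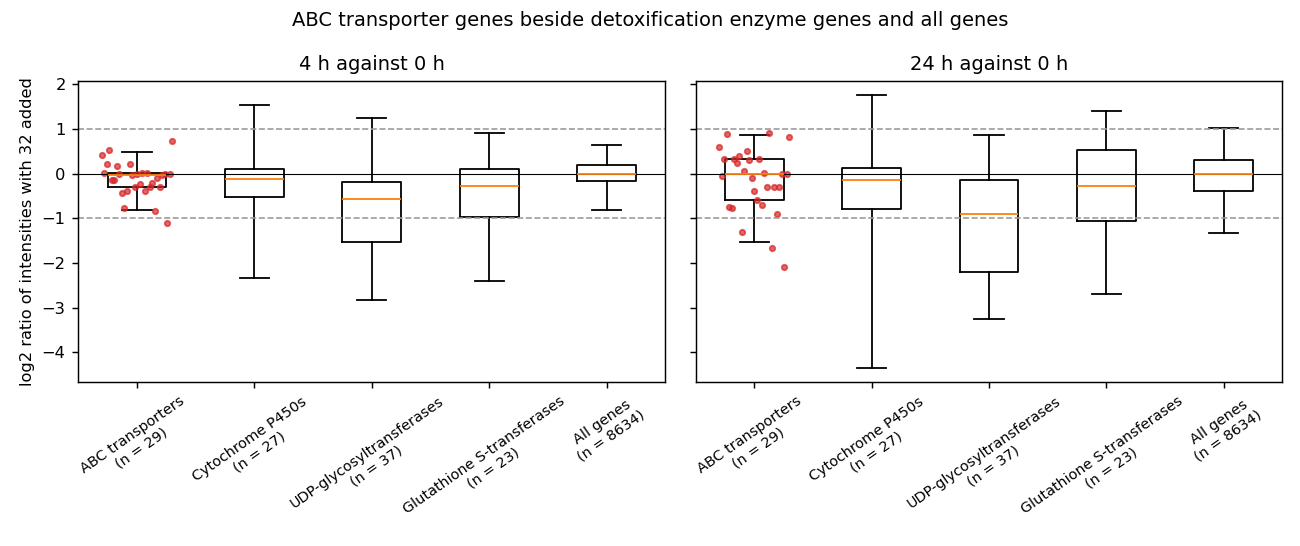
Log2 ratios for 4 h against 0 h (left) and 24 h against 0 h (right) of 29 ABC transporter genes, 27 cytochrome P450, 37 UDP-glycosyltransferase and 23 glutathione S-transferase genes and all 8634 genes. Each group holds only the genes that passed the filter. Boxes span the quartiles with the median as a line, whiskers reach the 5th and 95th percentiles, red points are the ABC genes and dashed lines mark 2-fold. The ABC median of -0.01 at 24 h lies at the all-gene median of 0, and the UDP-glycosyltransferase median is -0.90.

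Markers of tissues known for ABC transport stood as follows. The 7 intestine markers all passed and summed to 17609 at 0 h, 15862 at 4 h and 17717 at 24 h, with 2 lower and 0 higher at each exposure time. The asp-1 gene, for a gut protease, made up most of that sum, at 9702, 11578 and 12957. The lower genes were act-5, for the actin of the gut microvilli, at 3621, 905 and 1103, and pept-1, for a peptide transporter, at 959, 181 and 441, so the sum was nearly level while single markers were not. The 4 excretory cell markers summed to 682, 591 and 634, with 0 past 2-fold. The epidermis markers had 1 of 4 higher and 1 lower at 24 h, the body wall muscle markers 0 of 4 past 2-fold, and the neuron markers 1 of 5 higher. Among 7 passing genes of the mitochondrial stress response 1 was lower at 24 h, and of 2 passing heme-responsive genes 1 was lower at each time.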

How the data were processed

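Per the labels' protocols, 300 ng of column-purified total RNA was labelled with biotin from the 3' end and hybridised to an Affymetrix C. elegans array. The authors deposited 1 normalized intensity per probe set and array, on a linear scale, as the values themselves show. The submitters' processing notes name Affymetrix Expression Console 1.1, RMA and MAS5 with no role or order. Many values are exactly identical on several arrays, which lowers the apparent noise.

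Probe sets were named from the platform annotation, and all 55 member genes matched a current symbol of WBcel235, used for names and gene order alone. Of 22625 probe sets, 20766 name 1 gene, 887 several, 895 none and 77 are controls. Log2 values were computed from the intensity plus 32. Probe sets with _x_ or _s_ in their name are open to cross-hybridisation. Genes pgp-6, pgp-7 and pmp-4 have no probe set of their own here. A 2-fold threshold was used, with no p-values. Every member could be named. The code for the ratios was tested on simulated data with known changes, which tests no measured ratio. Members, lists, thresholds and the floor were chosen with earlier results of these data known. Computations used Python 3.11.15, numpy 2.4.6 and pandas 2.3.3.

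Alternatives were other thresholds (1.5-fold, 3-fold), pseudocounts (1, 100), filters, probe set choices, normalizations and a background subtraction. The number of arrays limits the precision.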

Additional observations from a re-analysis of the deposited data

Results flagged for a closer look

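In 4 of the 29 genes the ratios at 4 h and 24 h, each against the same 0 h array, lay on opposite sides of 0 and differed by more than the technical SD of 24 h against 4 h, which is 0.29. The haf-4 ratios were -0.43 at 4 h and 0.40 at 24 h, and those of haf-9 were -0.38 and 0.052. For mrp-1 they were -0.037 and 0.31, and for pgp-11 -0.20 and 0.91. The pgp-11 gene passed the filter through its 24 h value alone, the array on which it is high. With 1 array per time the difference was not tested. The share of all genes that meet this criterion was not computed, so the count is no result about the ABC genes as a group. This criterion was set after the ratios were seen, and 0 of 29 genes met the one tried first, ratios on opposite sides of 0 that each exceeded their own technical SD. Under scaling on hybridisation controls all 4 of the 4 h ratios were above 0 (0.00, 0.05, 0.39 and 0.11 in the same order of genes).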

How the results depend on the processing

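No paired analysis was possible because each time has 1 array, and for the same reason no replicate could be left out. The number of ABC genes past 2-fold at 4 h, 1 in the report, was 3 without a filter (2.83% of all genes) and 2 with the dimmest probe sets. It was 0 without probe sets open to cross-hybridisation, 4 at 1.5-fold (14.5% of all genes) and 0 at 3-fold (1.52%). With the dimmest probe sets 155 of all 8634 genes were higher and 271 lower. Without probe sets open to cross-hybridisation 107 of all 5690 genes were higher and 190 lower. At 24 h, 3 in the report, the number was 5 with a pseudocount of 1, 5 without a filter (7.66% of all genes) and 5 after background subtraction. It was 8 under scaling on hybridisation controls (24.6% of all genes) and 12 at 1.5-fold (31.7% of all genes). Of all 8634 genes, 577 were higher and 793 lower with the pseudocount of 1, and 563 and 784 after background subtraction. For 24 h against 4 h, 1 in the report, the number was 2 with a pseudocount of 1, 2 under median centring and 2 after background subtraction. Of all 8634 genes, 255 were higher and 343 lower, 178 and 292, and 245 and 334 under these settings in order. It was also 2 without a filter (3.01% of all genes), 2 under scaling on hybridisation controls (6.17% of all genes) and 7 at 1.5-fold (16.1%). It was 0 with a pseudocount of 100, 0 with a filter at the 75th percentile and 0 at 3-fold (2.02%). With that pseudocount 128 of all 8634 genes were higher and 194 lower, and with that filter 76 and 139 of 4532. The median ratio moved by more than the technical SD under scaling on hybridisation controls alone, to 0.35 at 4 h and 0.59 at 24 h. That SD belongs to the ratio of a single gene, so it is a wide yardstick for a median. With the filter at the 75th percentile, the 24 h median of -0.01 became 0.25 over 19 genes (-0.03 for all genes). When _x_ and _s_ probe sets were dropped, the 4 h median of -0.04 became -0.17 over 16 genes (0 for all genes). Of the single-gene ratios past 2-fold, 0 changed sign under the alternative settings. This is no test of the directions, since a pseudocount or a filter cannot turn a sign. Of the 4 genes concerned only pgp-14 had a second passing probe set. The cause of the shifts in counts and medians was not tested.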
